A study of Mus musculus with 12 samples.

Results

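The genes described here are 37 antioxidant, glutathione and iron genes, most of them known targets or regulators of the transcription factor NRF2, which the gene Nfe2l2 encodes. They were chosen by gene name, with earlier results of these data known. Gene positions are those of the deposited table, in build mm10. All 37 were found among the 54532 genes of the deposited count table, and all 37 passed the low-count filter that kept 13800 genes for testing. NRF2 is held low in resting cells because KEAP1 hands it to a ubiquitin ligase. When KEAP1 is modified by electrophiles or oxidants, NRF2 accumulates, pairs with a small MAF protein and binds antioxidant response elements of genes for glutathione synthesis, thioredoxin recycling, haem breakdown and iron storage. Macrophages, which make oxidants and recycle the iron of engulfed red cells, are known for strong use of these genes.

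Macrophages grown from mouse bone marrow were profiled by sequencing of their poly-A RNA, in 4 groups of 3 libraries. Marrow cells came from male mice, which the series text gives as 8 weeks old, and all were cultured with M-CSF, a cytokine that drives marrow precursors to become macrophages, at 50 ng/mL. The cKO Pg group had the genotype labelled Itga9-Lyz2-cKO and received an agent called Pg in the labels, for 2 hours with a stated MOI of 1:20. The cKO control group had the same genotype without Pg. The cHet Pg and cHet control groups had the genotype labelled Itga9-Lyz2-cHet, with Pg and without it. The labels spell out neither the alleles behind these names nor whether each library is from its own mouse or culture. P-values therefore measure the spread between libraries, which may be technical. No genotype without an Itga9-Lyz2 allele name was among the groups.

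Library totals lay between 14527674 and 16793803 counts. Itga9 (ENSMUSG00000039115, chromosome 9, 118606690 to 118901003, plus strand), the gene named in the genotypes, stood at 5.98 to 13.6 CPM in the cKO libraries and 17.9 to 34.0 CPM in the cHet libraries, where CPM is the usual unit of counts scaled to a common library size. The log2 difference, cKO minus cHet, was -1.46 ± 0.26 on average (adjusted p = 0.0118) and -1.53 in controls (adjusted p = 0.0497), while the difference of -1.39 under Pg did not pass (adjusted p = 0.125). Lyz2 (ENSMUSG00000069516), the macrophage lysozyme gene, had 8746 to 10978 CPM in the cKO libraries and 17628 to 22004 CPM in the cHet libraries, a mean log2 difference of -0.97 ± 0.06 (adjusted p = 6.4e-08). All 8 macrophage markers listed, among them Csf1r and Adgre1, were detected in every group, which fits the labelled cell type. Summed over 10 stromal and fibroblast markers, the level was 3.70 to 5.50 CPM in cKO Pg, 2.18 to 3.21 in cKO control, 31.8 to 41.3 in cHet Pg and 32.1 to 34.3 in cHet control libraries, with Lum at 0 in all libraries. Summed over 9 erythroid markers, it was 6.19 to 15.1 CPM in cKO Pg, 13.6 to 21.3 in cKO control, 13.9 to 23.6 in cHet Pg and 26.3 to 34.6 in cHet control libraries. In bulk RNA, fewer cells of a type and less RNA per cell cannot be told apart.

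Most of these genes were higher after 2 hours with Pg, in both genotypes. In cKO macrophages 27 of the 37 rose, 3 fell and 7 did not pass the threshold, an adjusted p of 0.05, while 16.9% of all genes tested rose and 17.1% fell. In cHet macrophages 26 rose, 3 fell and 8 did not pass, against 18.0% of all genes up and 18.0% down. Because the members were chosen with earlier results of these data known, these shares are a description and no test of the set. The median log2 change of the 37 was 0.40 in cKO and 0.34 in cHet cells, and that of all genes tested was -0.00 and -0.01. Rises of at least 2-fold were seen for 8 members in cKO and 10 in cHet cells. The members that passed the threshold upwards in both genotypes numbered 23, and Nfe2l2, Keap1 and Tfrc fell in both. Slc40a1, Ftl1, Cat and Tkt passed upwards in cKO cells alone, and Gpx4, Prdx5 and Nqo1 in cHet cells alone. Of these 7, the interaction, the difference between both Pg changes, passed for Slc40a1 only. Blvrb, Gss, Sod1 and Me1 passed in neither genotype. Summed over 6 dendritic cell markers, the level was 11.8 to 16.5 CPM in cKO Pg against 6.37 to 7.98 CPM in cKO control libraries, and 10.7 to 14.0 CPM in cHet Pg against 5.53 to 7.97 CPM in cHet control libraries. Of these markers 3 rose in cKO and 2 in cHet cells, Xcr1 and Ccr7 in both, and their part in the Pg changes was not tested.

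The 37 genes took 4.62%, 4.49% and 4.60% of all counts in cKO Pg libraries, against 3.28%, 3.18% and 3.28% in cKO controls. In cHet libraries the share was 4.48%, 4.37% and 4.41% with Pg and 3.22%, 3.33% and 3.14% without. Every Pg library lay above every control library. The ferritin genes Fth1 and Ftl1 held a large part of it, 2.21% on average in cKO Pg and 2.12% in cKO control libraries. Without them, the other 35 genes took 2.36% ± 0.0668 in cKO Pg and 1.13% ± 0.0133 in cKO control libraries, and 2.33% ± 0.0280 in cHet Pg and 1.20% ± 0.0285 in cHet control libraries (SD, n = 3). These shares are of library totals and use no further scaling.

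How many members rose depended on the scaling between libraries. TMM, the trimmed mean of M-values used for the values given here, sets the median gene near no change. With library size alone as the scale, the median of all genes tested moved by -0.24 on the log2 scale in both Pg comparisons, and the share of called genes that were up was 18.7% in place of 49.7% in cKO cells and 19.1% in place of 50.0% in cHet cells. On that scale 16 members rose and 4 fell in cKO cells, and 17 rose and 5 fell in cHet cells. The members with log2 changes above 0.5 by TMM stayed past the threshold on both scales. The changes below are therefore relative to the median gene.

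**Figure D1:**
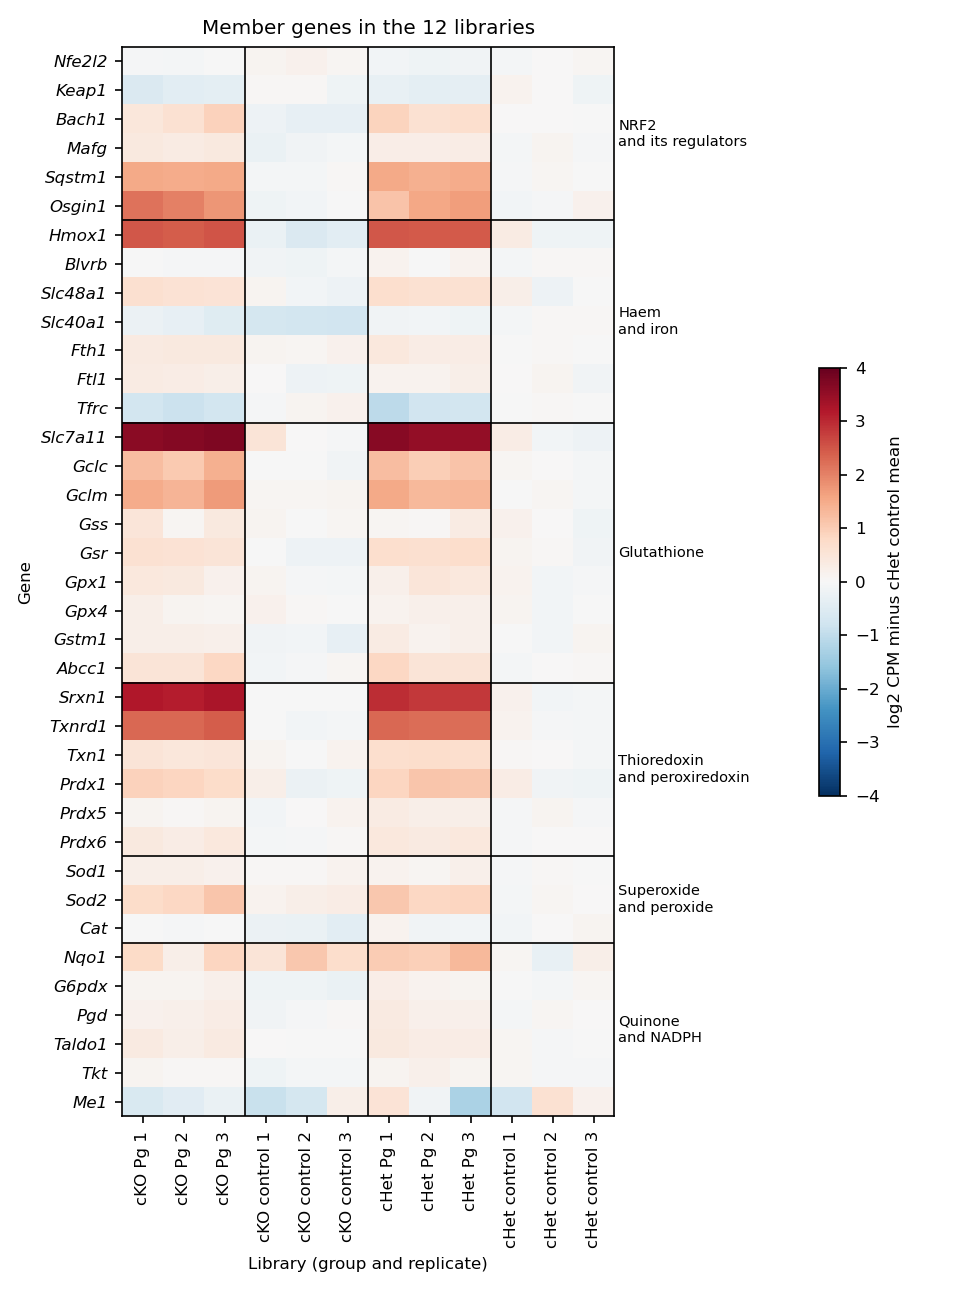
Level of each of the 37 genes (rows, grouped by role) in the 12 libraries (columns, named by group and replicate), as log2 CPM minus the mean of the 3 cHet control libraries. Slc7a11, Srxn1, Hmox1 and Txnrd1 were high in all 6 Pg libraries, and Slc40a1 was lower in the 3 cKO control libraries than in all others.

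To show the DNA next to which the strongest responders start, the RefSeq promoter table of build GRCm38.p6 was searched for members with a match to the core of the antioxidant response element, TGACNNNGC, or to TGANTCA, the core bound by AP-1 type factors and, in longer forms, by NRF2 and BACH1. Both strands of the 250 bases before each start were read. Promoters were found for 30 of the 37 members, and those of Hmox1, Slc48a1, Slc40a1, Gclc, Gsr, Abcc1 and Prdx6 were not among the entries matched. TGACNNNGC occurred in 7 of the 30 members (G6pdx, Gclm, Mafg, Nfe2l2, Prdx1, Sod1 and Txnrd1) and in 11.5% of all 27025 genes of the table. TGANTCA occurred in 3 (Osgin1, Prdx1 and Srxn1) and in 7.82% of all genes. Counted over promoters, 10.2% of 32851 held the first and 6.75% the second. Slc7a11, the largest riser of the 37, had a promoter entry that matched neither. The same held for Sqstm1, Bach1, Nqo1 and Cat, also described singly below. Matches are printed here in capitals for the 5 members with a match among those described singly below, 5′ to 3′, without bases inside an annotated exon of the gene.
Srxn1 (chr2:152105274-152105515, plus strand): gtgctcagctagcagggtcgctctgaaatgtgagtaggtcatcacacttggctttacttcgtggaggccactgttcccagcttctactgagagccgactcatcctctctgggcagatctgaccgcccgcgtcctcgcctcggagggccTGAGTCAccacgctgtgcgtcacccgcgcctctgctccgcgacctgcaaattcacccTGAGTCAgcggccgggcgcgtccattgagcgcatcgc
Txnrd1 (chr10:82858956-82859178, plus strand): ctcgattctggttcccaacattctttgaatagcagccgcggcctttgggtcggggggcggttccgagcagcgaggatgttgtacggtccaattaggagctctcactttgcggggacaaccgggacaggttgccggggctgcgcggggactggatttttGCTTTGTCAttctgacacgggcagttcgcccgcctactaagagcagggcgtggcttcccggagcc
Osgin1 (chr8:119436897-119437117, plus strand): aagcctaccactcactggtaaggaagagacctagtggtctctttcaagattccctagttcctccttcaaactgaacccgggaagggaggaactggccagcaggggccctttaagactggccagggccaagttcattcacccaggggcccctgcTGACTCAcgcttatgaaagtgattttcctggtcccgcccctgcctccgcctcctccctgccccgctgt
Gclm (chr3:122245307-122245556, plus strand): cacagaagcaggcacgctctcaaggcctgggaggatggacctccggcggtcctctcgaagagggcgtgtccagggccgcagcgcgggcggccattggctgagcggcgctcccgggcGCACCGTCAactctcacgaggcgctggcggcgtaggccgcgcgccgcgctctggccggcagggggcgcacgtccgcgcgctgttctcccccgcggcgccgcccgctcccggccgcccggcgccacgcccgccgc
Prdx1 (chr4:116685349-116685543, plus strand): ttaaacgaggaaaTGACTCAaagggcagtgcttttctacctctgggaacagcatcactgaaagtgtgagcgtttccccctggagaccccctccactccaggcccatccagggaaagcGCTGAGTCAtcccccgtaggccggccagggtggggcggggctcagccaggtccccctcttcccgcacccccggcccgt
Srxn1 held TGANTCA at 102 and 45 bases before its start, and Osgin1 at 97 bases. Txnrd1, for which 1 of 3 listed promoters is shown, held the antioxidant response element core at 92 bases and Gclm at 134 bases, each on the minus strand. Distances are counted from the RefSeq start. For Srxn1, Txnrd1, Osgin1 and Prdx1 that start lies inside the gene span given below. Their printed stretches of 242, 223, 221 and 195 bases stop short of it, where an annotated exon begins. The stretches of Txnrd1 and Osgin1 lie wholly inside the gene span, and those of Srxn1 and Prdx1 end just before it. In Prdx1 the match to TGACNNNGC at 133 bases overlapped the TGANTCA match at 131 bases, and a further TGANTCA lay at 237 bases. These matches describe letters in a window and do not show that a factor was bound.

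Among the regulators, the NRF2 gene itself and its inhibitor fell while partner, competitor and adaptor genes rose. The group also held Osgin1, which is none of these, and of its 6 genes 4 rose and 2 fell in each genotype. Sqstm1 (ENSMUSG00000015837, chromosome 11, 50199366 to 50210827, minus strand) encodes p62, an autophagy receptor that can sequester KEAP1. It had 6116, 5958 and 6092 CPM in cKO Pg libraries against 2051, 2023 and 2225 CPM in cKO controls. In cHet cells it had 6105, 5824 and 5981 CPM with Pg against 2095, 2254 and 2106 CPM without. All Pg libraries stood far above all controls, with log2 changes of 1.53 ± 0.06 in cKO (adjusted p = 2.8e-12) and 1.47 ± 0.06 in cHet cells (adjusted p = 6.8e-12), where ± is the standard error.

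Bach1 (ENSMUSG00000025612, chromosome 16, 87698945 to 87733346, plus strand), whose haem-sensitive product represses Hmox1 and other NRF2 targets, had 432, 489 and 608 CPM in cKO Pg libraries against 276, 253 and 253 CPM in cKO controls. In cHet libraries it had 596, 482 and 505 CPM with Pg against 322, 322 and 312 CPM without. The Pg libraries spread more widely than the controls, but no Pg library fell within the range of controls. The log2 changes were 0.97 ± 0.11 (adjusted p = 6.3e-06) in cKO and 0.73 ± 0.11 (adjusted p = 9.0e-05) in cHet cells. Mafg, which encodes a small MAF partner of NRF2 and BACH1, rose by 0.53 and 0.27 in cKO and in cHet cells, and on the library-size scale its cHet change was 0.03 and did not pass.

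Osgin1 (ENSMUSG00000074063, chromosome 8, 119434124 to 119446256, plus strand), an oxidative stress-induced growth inhibitor, had 99.4, 88.8 and 74.0 CPM in cKO Pg libraries against 19.5, 20.4 and 21.7 CPM in cKO controls. The cHet libraries had 48.8, 63.7 and 69.9 CPM with Pg against 20.3, 21.1 and 24.8 CPM without. Its controls overlapped between genotypes, and every cKO Pg library was above every cHet Pg library. The rise was 2.09 ± 0.14 on the log2 scale in cKO (adjusted p = 6.2e-08) and 1.46 ± 0.14 in cHet cells (adjusted p = 1.9e-06).

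Nfe2l2 and Keap1, like Tfrc below, are given by their values because their fall was seen, not by the rule used for the genes above. Nfe2l2 (ENSMUSG00000015839, chromosome 2, 75675513 to 75704641, minus strand) had 667, 663 and 684 CPM in cKO Pg libraries against 758, 784 and 741 CPM in cKO controls, and 641, 613 and 626 CPM in cHet Pg libraries against 658, 703 and 730 CPM in cHet controls. Within each genotype, its Pg and control libraries did not overlap. The changes were small, -0.18 ± 0.06 in cKO (adjusted p = 0.0209) and -0.15 ± 0.06 in cHet cells (adjusted p = 0.0453). Both calls were lost when single libraries were left out. In cKO cells this held for cKO Pg 1, cKO Pg 2 or cKO control 2, with adjusted p of 0.0590, 0.0708 and 0.0836. In cHet cells it held for all but cHet control 1, with adjusted p of 0.0531 to 0.172. Keap1 (ENSMUSG00000003308, chromosome 9, 21229730 to 21239361, minus strand) had 28.6, 31.8 and 32.3 CPM in cKO Pg libraries against 43.3, 43.8 and 37.6 CPM in cKO controls. With 34.4, 32.0 and 32.9 CPM in cHet Pg and 47.0, 43.2 and 37.4 CPM in cHet control libraries, it fell by 0.43 ± 0.09 in cKO (adjusted p = 0.00150) and by 0.36 ± 0.09 in cHet cells (adjusted p = 0.00451).

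Glutathione genes rose together at the steps of cystine import and of the first, rate-limiting synthesis reaction. Of the 9 genes in the glutathione group, 7 rose in cKO and 8 in cHet cells. None fell by edgeR with TMM scaling or by DESeq2, while Gpx4 fell in cKO cells on the library-size scale, as given below. Slc7a11 (ENSMUSG00000027737, chromosome 3, 49892526 to 50443614, minus strand), the cystine/glutamate antiporter chain that supplies cysteine, showed the largest rise of all 37. It had 544, 557 and 594 CPM in cKO Pg libraries against 63.0, 44.9 and 43.0 CPM in cKO controls. The cHet values were 545, 502 and 500 CPM with Pg and 54.3, 41.3 and 38.4 CPM without. In each genotype control 1 was somewhat above the other controls, and all were far below the Pg libraries. The fold was 11.2 in cKO (log2 3.49 ± 0.16, adjusted p = 1.5e-08) and 11.5 in cHet cells (log2 3.53 ± 0.16, adjusted p = 1.4e-08).

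Gclc and Gclm encode the catalytic and the modifier subunit of glutamate-cysteine ligase, which joins glutamate to cysteine. Gclm (ENSMUSG00000028124, chromosome 3, 122245557 to 122270732, plus strand) had 294, 271 and 344 CPM in cKO Pg libraries against 112, 110 and 113 CPM in cKO controls, and 302, 261 and 263 CPM in cHet Pg libraries against 105, 111 and 100 CPM in cHet controls. Gclc (ENSMUSG00000032350, chromosome 9, 77754535 to 77794485, plus strand) had 120, 106 and 136 CPM in cKO Pg libraries against 50.6, 50.3 and 46.2 CPM in cKO controls, and 121, 102 and 113 CPM in cHet Pg libraries against 54.6, 51.4 and 48.1 CPM in cHet controls. For both genes, Pg and control libraries did not overlap within either genotype. Gclm rose by 1.44 ± 0.08 in cKO (adjusted p = 5.7e-10) and 1.38 ± 0.08 in cHet cells (adjusted p = 1.1e-09), and Gclc by 1.30 ± 0.09 (adjusted p = 5.3e-09) and 1.12 ± 0.09 (adjusted p = 3.1e-08).

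The next enzyme, glutathione synthetase (Gss), stood at 9.89 to 13.1 CPM in cKO Pg and 9.35 to 10.1 CPM in cKO control libraries, with log2 changes of 0.27 ± 0.14 in cKO and 0.16 ± 0.14 in cHet cells that did not pass (adjusted p = 0.151 and 0.416). Its 95% interval in cHet cells was -0.14 to 0.45. Gsr, the reductase that returns oxidised glutathione to its reduced form, rose by 0.70 and 0.66 in cKO and in cHet cells. Abcc1, an exporter of glutathione and its conjugates, rose by 0.65 and 0.64. The peroxidase gene Gpx1 rose by 0.34 and 0.37, and the transferase gene Gstm1 by 0.42 and 0.23. Gpx4, which reduces lipid peroxides, had changes of 0.07 ± 0.07 in cKO and 0.18 ± 0.07 in cHet cells, of which the cHet one passed by a narrow margin (adjusted p = 0.0496). On the library-size scale Gpx4 was lower with Pg in both genotypes, at -0.17 in cKO (adjusted p = 0.0470) and -0.06 in cHet cells, and Gstm1 stood at -0.01 in cHet cells.

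In the thioredoxin and peroxiredoxin group, 5 of 6 genes rose in cKO and 6 of 6 in cHet cells. Srxn1 (ENSMUSG00000032802, chromosome 2, 152105516 to 152111376, plus strand) encodes sulfiredoxin, which repairs over-oxidised peroxiredoxins. It had 1447, 1375 and 1519 CPM in cKO Pg libraries against 153, 153 and 155 CPM in cKO controls, and 1203, 1117 and 1105 CPM in cHet Pg libraries against 178, 146 and 147 CPM in cHet controls. Controls of both genotypes overlapped, whereas each cKO Pg library exceeded each cHet Pg library. Srxn1 rose by 3.24 ± 0.08 in cKO (adjusted p = 1.3e-14) and by 2.86 ± 0.08 in cHet cells (adjusted p = 1.1e-13).

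Txnrd1 (ENSMUSG00000020250, chromosome 10, 82833951 to 82897712, plus strand), the cytosolic thioredoxin reductase, had 2121, 2119 and 2294 CPM in cKO Pg libraries against 431, 397 and 407 CPM in cKO controls. In cHet cells the values were 2141, 2036 and 2025 CPM with Pg against 472, 420 and 404 CPM without. The levels of both genotypes overlapped in each condition, and the changes were 2.40 ± 0.07 in cKO (adjusted p = 6.3e-14) and 2.26 ± 0.07 in cHet cells (adjusted p = 2.4e-13). Its substrate thioredoxin, Txn1, rose by 0.40 ± 0.06 in cKO and 0.68 ± 0.06 in cHet cells.

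Prdx1 (ENSMUSG00000028691, chromosome 4, 116685544 to 116700822, plus strand), a peroxiredoxin that reduces hydrogen peroxide, had 1475, 1396 and 1305 CPM in cKO Pg libraries against 915, 655 and 683 CPM in cKO controls. With cHet cells the values were 1402, 1668 and 1652 CPM with Pg against 960, 710 and 687 CPM without. Control 1 was the highest control in each genotype and still below every Pg library. The rise was 0.89 ± 0.15 in cKO (adjusted p = 9.7e-04) and 1.00 ± 0.15 in cHet cells (adjusted p = 4.1e-04). Prdx6 rose by 0.39 and 0.40 in cKO and in cHet cells, and Prdx5 by 0.25 ± 0.07 in cHet cells, with 0.07 ± 0.07 in cKO cells (adjusted p = 0.496).

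**Figure D2:**
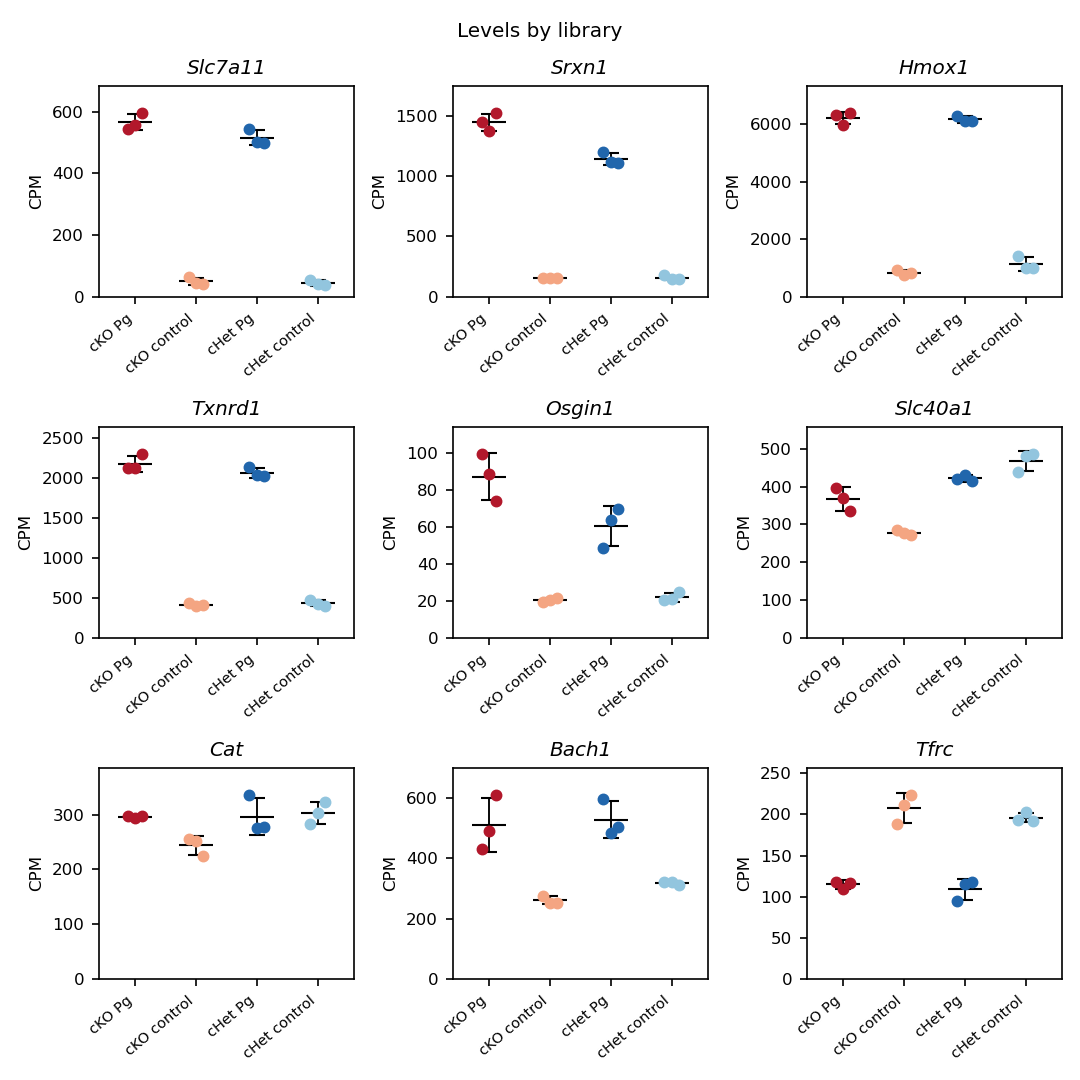
CPM of 9 of the genes in each library (points), with the mean (long bar) and SD (capped bar) of the 3 libraries of each group, on linear axes that start at 0. Slc7a11, Srxn1, Hmox1, Txnrd1, Osgin1 and Bach1 were higher in Pg than in control libraries of both genotypes, Tfrc was lower, and Slc40a1 was lowest in cKO control libraries.

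Of the 7 haem and iron genes, 5 rose and 1 fell in cKO cells, and 3 rose and 1 fell in cHet cells. Hmox1 (ENSMUSG00000005413, chromosome 8, 75093621 to 75100589, plus strand), the haem oxygenase that frees iron, carbon monoxide and biliverdin, had 6319, 5971 and 6380 CPM in cKO Pg libraries against 928, 759 and 831 CPM in cKO controls. The cHet libraries had 6301, 6103 and 6120 CPM with Pg against 1416, 1007 and 994 CPM without, where cHet control 1 stood above the other controls. Pg libraries of both genotypes overlapped. The rise was 2.89 ± 0.12 in cKO (adjusted p = 1.0e-09) and 2.44 ± 0.12 in cHet cells (adjusted p = 5.1e-09).

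Blvrb, a biliverdin reductase, stood at 189 to 191 CPM in cKO Pg and 172 to 183 CPM in cKO control libraries, with changes of 0.10 ± 0.06 in cKO and 0.09 ± 0.06 in cHet cells that did not pass (adjusted p = 0.227 and 0.270). Slc48a1, a transporter that brings haem out of the phagolysosome, rose by 0.64 in cKO and 0.62 in cHet cells. The ferritin heavy chain gene Fth1, by far the most abundant of the 37, rose by 0.26 ± 0.06 in cKO and 0.34 ± 0.06 in cHet cells. The light chain gene Ftl1 rose by 0.41 ± 0.07 in cKO cells, with 0.17 ± 0.07 in cHet cells (adjusted p = 0.0806). On the library-size scale neither ferritin passed in either genotype, with changes of 0.01 and 0.09 for Fth1 and 0.16 for Ftl1 in cKO cells.

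Tfrc (ENSMUSG00000022797, chromosome 16, 32608920 to 32632794, plus strand), the transferrin receptor through which cells take up iron, fell. It had 118, 109 and 117 CPM in cKO Pg libraries against 188, 212 and 223 CPM in cKO controls, and 94.7, 115 and 118 CPM in cHet Pg libraries against 193, 203 and 192 CPM in cHet controls. No Pg library reached the level of any control, and the log2 changes were -0.86 ± 0.08 in cKO (adjusted p = 3.7e-07) and -0.84 ± 0.08 in cHet cells (adjusted p = 4.4e-07). Their difference was -0.01 with a 95% interval of -0.26 to 0.23.

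Slc40a1 (ENSMUSG00000025993, chromosome 1, 45908068 to 45926523, minus strand) encodes ferroportin, the cellular iron exporter. It had 397, 369 and 335 CPM in cKO Pg libraries against 284, 278 and 272 CPM in cKO controls. Among cHet libraries the values were 420, 432 and 414 CPM with Pg against 438, 480 and 485 CPM without. Within cKO cells every Pg library was above every control, and within cHet cells every Pg library was below every control. The change was 0.40 ± 0.07 in cKO (adjusted p = 1.7e-04) and -0.15 ± 0.07 in cHet cells (adjusted p = 0.0948). On the library-size scale the cKO change was 0.16 (adjusted p = 0.0723) and the cHet change -0.39 (adjusted p = 1.7e-04).

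Of the superoxide and peroxide enzymes, the mitochondrial dismutase gene Sod2 rose by 0.66 ± 0.09 in cKO and 0.93 ± 0.09 in cHet cells. Sod1, the cytosolic dismutase, had changes of 0.14 and 0.13 that did not pass (adjusted p = 0.0721 and 0.108). Cat (ENSMUSG00000027187, chromosome 2, 103453849 to 103485160, minus strand), the catalase gene, had 297, 294 and 297 CPM in cKO Pg libraries against 255, 252 and 224 CPM in cKO controls. In cHet cells it had 335, 276 and 278 CPM with Pg against 283, 303 and 323 CPM without, and these groups overlapped. Cat rose by 0.28 ± 0.08 in cKO cells (adjusted p = 0.0104) and had a change of -0.03 ± 0.08 in cHet cells (adjusted p = 0.787). The cKO rise did not pass without cKO control 3 (0.22, adjusted p = 0.0658) or on the library-size scale (0.04), where the cHet change was -0.28 and passed (adjusted p = 0.00656).

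The NADPH-producing genes moved little. Among the 6 quinone and NADPH genes, 4 rose in each genotype. The pentose phosphate genes G6pdx, Pgd and Taldo1 rose by 0.27 to 0.35 in cKO cells and by 0.18 to 0.33 in cHet cells, and Tkt had 0.17 in cKO (adjusted p = 0.0346) and 0.13 in cHet cells, which did not pass (95% interval 0.01 to 0.26). On the library-size scale all 4 lost their calls, with G6pdx at -0.06 in cHet and Tkt at -0.07 in cKO cells. Nqo1 (ENSMUSG00000003849, chromosome 8, 107388225 to 107403206, minus strand), a quinone reductase often used as an NRF2 readout, was scarcely expressed. It had 1.34, 0.925 and 1.44 CPM in cKO Pg libraries against 1.13, 1.68 and 1.28 CPM in cKO controls, which overlapped, and 1.62, 1.55 and 1.94 CPM in cHet Pg libraries against 0.835, 0.641 and 0.934 CPM in cHet controls, which did not. Nqo1 rose by 1.08 ± 0.32 in cHet cells (adjusted p = 0.0139) and had a change of -0.14 ± 0.31 in cKO cells (adjusted p = 0.787). The cHet rise did not pass without cHet Pg 3 (adjusted p = 0.0586) or without cHet control 2 (adjusted p = 0.0620). Me1, the cytosolic malic enzyme, ranged from 1.07 to 3.90 CPM, with -0.06 ± 0.45 in cKO and -0.22 ± 0.42 in cHet cells.

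**Figure D3:**
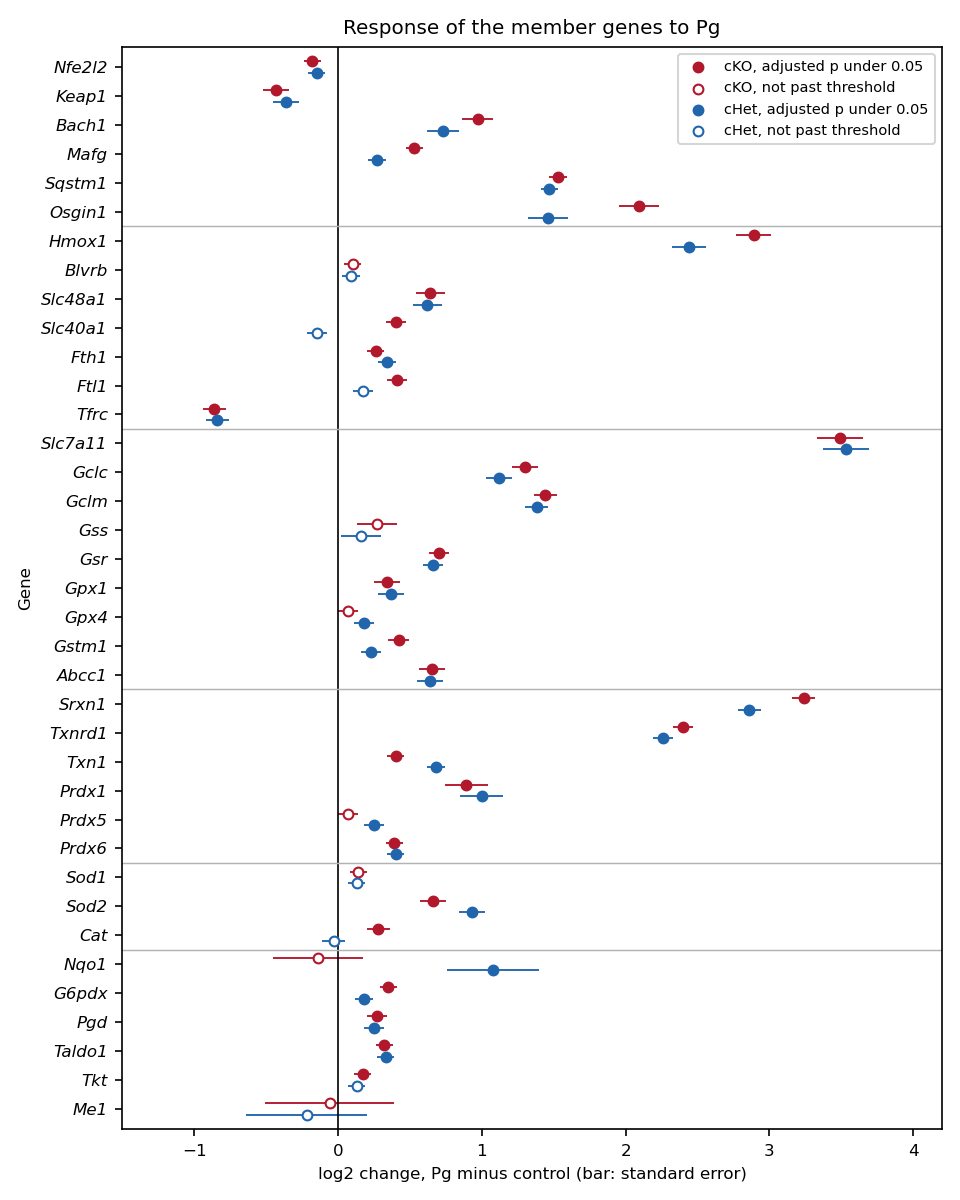
Log2 change with Pg of each gene in cKO (red) and cHet cells (blue), with bars of 1 standard error; filled points passed an adjusted p of 0.05. Slc7a11, at 3.49 in cKO and 3.53 in cHet cells, lies farthest to the right, and Tfrc, at -0.86 and -0.84, farthest to the left.

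The responses of both genotypes, which share no library, ran in parallel. Across the 37 genes the log2 changes had a Pearson r of 0.955 and a Spearman rho of 0.834, as a description over genes, which are not independent. The cKO change was the larger, with its sign, for 23 of the 37. Tested gene by gene, the interaction (the Pg change in cKO minus that in cHet cells) passed upwards for Slc40a1 and downwards for 0 members, by edgeR, against 0.457% of all genes up and 0.261% down. At an unadjusted p under 0.05 there were 9 members in either direction, and DESeq2 called 3. Slc40a1 had an interaction of 0.55 ± 0.09 (95% interval 0.35 to 0.75, adjusted p = 0.0115), and it passed in all 18 alternatives that bear on it, with adjusted p of 2.8e-06 to 0.0475. DESeq2 also called Srxn1 at 0.37 (adjusted p = 0.0435) and Txn1 at -0.29 (adjusted p = 0.0453). In edgeR with the low-count filter, Srxn1 had 0.37 ± 0.10 (adjusted p = 0.126), Txn1 -0.28 ± 0.08 (adjusted p = 0.148), Osgin1 0.63 ± 0.19 (adjusted p = 0.175) and Hmox1 0.45 ± 0.16 (adjusted p = 0.248). In edgeR without that filter, Srxn1 (0.38, adjusted p = 0.00492) and Osgin1 (0.63, adjusted p = 1.4e-04) passed as well.

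Between genotypes, unstimulated cells differed in 3 members, all lower in cKO, by edgeR. Against them, 3.02% of all genes tested were lower and 2.13% higher in cKO controls. By edgeR with the low-count filter, 0 members were higher, and 12 had an unadjusted p under 0.05 in either direction. DESeq2, run without that filter, also called 0 members higher. In edgeR without that filter Sod2 was higher (0.24, adjusted p = 0.00830) and Bach1 lower in cKO controls (-0.29, adjusted p = 0.00108). With the filter, Bach1 differed by -0.29 ± 0.11 (adjusted p = 0.146), with no overlap between groups. It passed when only both control groups were fitted (adjusted p = 0.0188). Among the 3, Slc40a1 had the largest difference, with the values given above: all 3 cKO controls lay below all 3 cHet controls, a log2 difference of -0.75 ± 0.07 (fold 0.595, adjusted p = 2.2e-06), and it passed in all 13 alternatives with differences of -0.79 to -0.72. Hmox1 had a difference of -0.44 ± 0.12 (adjusted p = 0.0464) and Cat of -0.31 ± 0.08 (adjusted p = 0.0279), again with no overlap between groups. Hmox1 no longer passed when cKO control 2 (adjusted p = 0.144), cKO control 3 (adjusted p = 0.147) or cHet control 1 (-0.25, adjusted p = 0.0630) was left out, and when only both control groups were fitted (adjusted p = 0.160). Cat no longer passed when cKO control 3 (adjusted p = 0.147), cHet control 2 (adjusted p = 0.0770) or cHet control 3 (adjusted p = 0.138) was left out.

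Under Pg, 1 member differed between genotypes. Srxn1 was higher in cKO by 0.34 ± 0.07 (fold 1.27, adjusted p = 0.0179), beside 0.652% of all genes higher and 1.20% lower. The call was lost without cKO Pg 1 (adjusted p = 0.0589), cKO Pg 3 (adjusted p = 0.0612), cHet Pg 2 (adjusted p = 0.0914) or cHet Pg 3 (adjusted p = 0.105), with differences of 0.31 to 0.34. No member was lower by edgeR, 5 had an unadjusted p under 0.05, and DESeq2 called Txn1 lower (-0.21, adjusted p = 0.0404). Osgin1, at 0.52 ± 0.13 (adjusted p = 0.0625), was called higher by DESeq2 (adjusted p = 0.0132). It was also called by edgeR without the low-count filter (adjusted p = 8.1e-08), and with the filter when cKO Pg 3 (adjusted p = 0.0154) or cHet Pg 3 (adjusted p = 0.0306) was left out. Slc40a1 differed by -0.20 ± 0.07 under Pg (adjusted p = 0.177), with every cKO Pg library still below every cHet Pg library. Hmox1 and Cat had differences of 0.01 ± 0.12 and -0.00 ± 0.08, with 95% intervals of -0.24 to 0.26 and -0.17 to 0.17. Averaged over both conditions, Slc40a1 alone passed, at -0.48 ± 0.05 (adjusted p = 3.6e-06), while 2.13% of all genes were higher and 2.78% lower. By edgeR with the filter and all libraries, 0 members were higher on average, and 12 had an unadjusted p under 0.05. DESeq2, run without the filter, also called 0 members higher on average. In edgeR without the filter, Osgin1 (0.21, adjusted p = 0.0191) and Srxn1 (0.16, adjusted p = 0.0146) were higher on average. In that fit Bach1 (-0.17, adjusted p = 0.0144) and Cat (-0.15, adjusted p = 0.0403) were lower, as well as Slc40a1. With the filter, Srxn1 was higher without cHet control 1 (0.21, adjusted p = 0.00683), and Bach1 was lower without cKO Pg 3 (-0.24, adjusted p = 0.0192).

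The summed erythroid and stromal markers given above moved with genotype too. In controls both sums were lower in every cKO than in every cHet library, and under Pg this held for the stromal sum, while the erythroid sums overlapped. Of the 4 erythroid markers tested, none passed between genotypes in controls by edgeR, with log2 differences of -0.89 to -0.50 and 2 at an unadjusted p under 0.05. Of the 7 stromal markers tested, 6 were lower in cKO controls, with a median of -4.22. Among 5 B and plasma cell markers Jchain was higher in cKO controls (1.87, adjusted p = 0.00507), while the summed level was 140 to 188 CPM in cKO and 147 to 220 CPM in cHet controls. Of 8 neutrophil markers, 0 passed in controls by edgeR and 2 had an unadjusted p under 0.05. Ly6g (-1.39), Retnlg (-1.12), Camp (-0.43) and Ltf (-0.22) were lower in every cKO than in every cHet control. Of all genes tested, 23.5% had no overlap between cKO and cHet controls, in either direction. The summed level of the 8 neutrophil markers was 420 to 523 CPM in cKO and 473 to 622 CPM in cHet controls. The part of any of these markers in the differences of Slc40a1, Hmox1 and Cat was not tested.

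**Figure D4:**
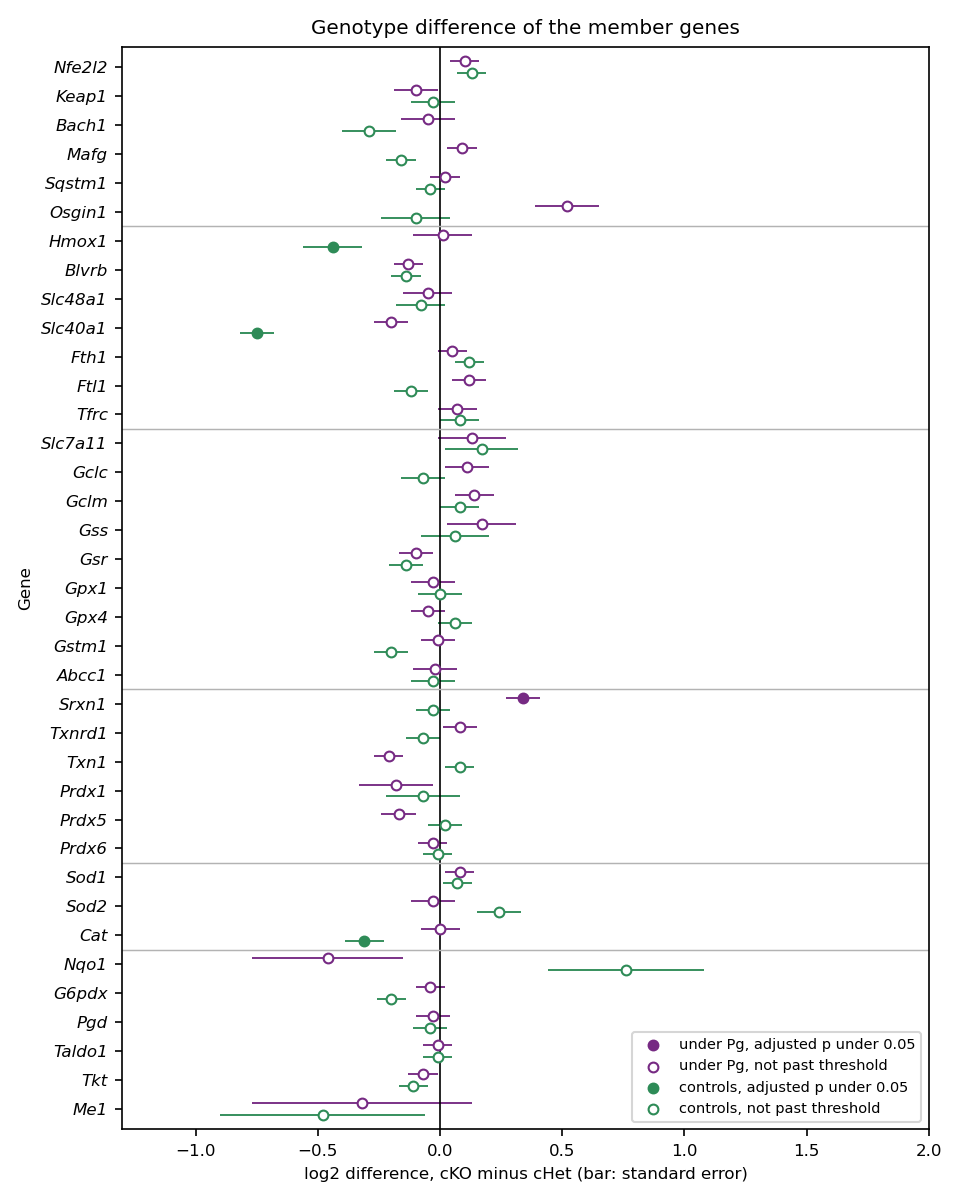
Log2 difference of cKO minus cHet for each gene under Pg (purple) and in controls (green), with bars of 1 standard error; filled points passed an adjusted p of 0.05. Slc40a1 at -0.75, Hmox1 at -0.44 and Cat at -0.31 passed in controls, and Srxn1 at 0.34 passed under Pg.

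Set per kilobase of gene length, levels of these genes spanned several orders of magnitude. In cKO Pg libraries Fth1 averaged 19078 CPM per kb, Ftl1 5549, Hmox1 3554 and Sqstm1 1804, and Srxn1, in place 5, 513. In cKO controls Fth1 averaged 15952 CPM per kb and Ftl1 4187, followed by Sqstm1 with 626 and Hmox1 with 479, and Srxn1 was in place 19 with 54.4. In cHet Pg libraries Srxn1 was in place 6 with 405 CPM per kb, and in cHet controls in place 19 with 55.6. Nqo1 and Me1 held the last places in all groups, at 0.797 and 0.491 CPM per kb in cKO Pg libraries.

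Other genes of the pathway came from lists drawn up by name, also with earlier results of these data known. Their counts stand beside those of all genes, of which 16.9% rose and 17.1% fell in cKO cells. In cHet cells 18.0% of all genes rose and 18.0% fell. Of 9 further NRF2 regulators tested, 3 (33.3%) rose in cKO and 4 (44.4%) in cHet cells, and 1, Sesn2, fell in cHet cells by 0.52. The small MAF genes led. Maff had 291, 267 and 208 CPM in cKO Pg libraries against 69.3, 58.2 and 51.8 CPM in cKO controls, and 166, 229 and 243 CPM in cHet Pg libraries against 98.5, 81.8 and 89.6 CPM in cHet controls. It rose by 2.09 ± 0.18 in cKO and 1.24 ± 0.17 in cHet cells, and Mafk by 0.95 and 0.80. Cul3, the scaffold of the ligase that KEAP1 serves, rose by 0.29 and 0.47 in cKO and in cHet cells. Of 23 glutathione genes, 4 (17.4%) rose and 1 fell in cKO, and 3 (13.0%) rose and 2 fell in cHet cells, shares of risers near or below those of all genes. Slc3a2, the heavy chain that pairs with the Slc7a11 product, rose by 0.84 and 0.70, and the glutaredoxin gene Glrx by 0.26 and 0.50. The highest log2 change of the 23 was 1.88 in cKO and 2.07 in cHet cells. Chac1, a scarce gene of this list, had 1.61, 0.213 and 1.31 CPM in cKO Pg libraries against 0.536, 0.125 and 0.175 CPM in cKO controls, which overlapped. In cHet libraries it had 0.562, 1.13 and 1.07 CPM with Pg against 0.334, 0.233 and 0.0623 CPM without. Ggct rose by 0.70 in cKO cells, with 0.35 in cHet cells (adjusted p = 0.0540), and Gstt2 fell by 0.37 in cHet cells, with 0.06 in cKO cells.

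Of 10 thioredoxin and peroxiredoxin genes, 1 (10.0%) rose and 2 (20.0%) fell in cKO, and 2 (20.0%) fell in cHet cells, where 0 rose by edgeR and 3 had an unadjusted p under 0.05. The shares that fell were near those of all genes. Sesn1, a stress-induced sestrin, had 50.4, 50.4 and 45.0 CPM in cKO Pg libraries against 166, 192 and 188 CPM in cKO controls, and 44.3, 57.5 and 56.0 CPM in cHet Pg libraries against 197, 197 and 207 CPM in cHet controls. It fell by 1.90 ± 0.09 in cKO (adjusted p = 5.0e-11) and by 1.93 ± 0.09 in cHet cells (adjusted p = 4.0e-11). Txnrd2, the mitochondrial thioredoxin reductase, fell by 0.34 and 0.46, unlike Txnrd1. Sesn3 rose by 0.41 in cKO cells and was lower in cKO than in cHet controls (-0.55 ± 0.11, adjusted p = 0.00747).

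Of 20 further iron and haem genes, 8 rose in cKO and 7 (35.0%) in cHet cells, and 3 (15.0%) fell in cHet cells. Spic, which encodes a transcription factor of iron-recycling macrophages, had 78.0, 76.6 and 67.8 CPM in cKO Pg libraries against 22.5, 19.4 and 19.4 CPM in cKO controls, and 61.0, 79.7 and 73.3 CPM in cHet Pg libraries against 36.7, 23.2 and 30.4 CPM in cHet controls. It rose by 1.86 ± 0.15 in cKO and 1.24 ± 0.14 in cHet cells. The metal transporter genes Slc11a2 and Slc11a1 rose by 0.64 and 0.52 in cKO cells and by 0.75 and 0.35 in cHet cells. Slc39a14, of the same list, is given for its levels and not by the rule of smallest p. It had 62.0, 66.7 and 117 CPM in cKO Pg libraries against 24.4, 33.3 and 32.3 CPM in cKO controls. In cHet libraries it had 144, 81.3 and 80.4 CPM with Pg against 23.3, 24.1 and 27.8 CPM without. Steap4, a metalloreductase gene with under 4 CPM in every library, rose by 2.47 ± 0.68 and 2.87 ± 0.55. Between genotypes, Cp, the ferroxidase ceruloplasmin, had 45.2, 41.7 and 37.8 CPM in cKO controls against 27.3, 24.0 and 27.9 CPM in cHet controls, a difference of 0.66 ± 0.15 (adjusted p = 0.0243). Steap3 was lower in cKO under Pg (-0.32 ± 0.08, adjusted p = 0.0413). Of 13 NADPH and carbonyl reduction genes, 3 (23.1%) rose in cKO and 2 (15.4%) in cHet cells, near the shares of all genes. They were led by Ugdh at 0.30 and 0.47 and Akr1b8 at 0.38 and 0.41, with Idh1 at 0.20 in cKO cells. Among NADPH oxidase genes, Rac2 rose by 0.33 in cKO and 0.26 in cHet cells, Cybb rose by 0.16 and 0.30, and Ncf1 fell by 0.31 in both.

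The annotation overlaps 17 of the 37 genes with another gene, and the sources used here do not give the strand setting of the counting. For 10 of them the partner reached more than 5% of the member's lowest count: G6pdx, Gclm, Gss, Keap1, Mafg, Prdx5, Slc48a1, Slc7a11, Sod1 and Txnrd1. The share was highest for Gss, at 198% (partner Acss2), Sod1, at 65.2% (Scaf4), G6pdx, at 58.8% (Ikbkg), and Mafg, at 42.6% (Sirt7). It sets the partner's highest count in any library against the member's lowest, and does not measure shared reads. The values of Gss, Sod1, G6pdx and Mafg are uncertain, by an amount that was not tested. Sirt7 lies on the same strand as Mafg, and Acss2, Scaf4 and Ikbkg lie on the strand opposite to their members. For Slc7a11 the share was 11.7%, set against its low control counts. Near-identical copies drew reads as well: Ftl1-ps1 held 1666 to 2411 counts and Gpx4-ps2 469 to 685 counts per library, so part of the Ftl1 and Gpx4 reads may be counted there.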

How the data were processed

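Poly-A RNA sequencing libraries, 12 in all, were analysed from 1 table of raw read counts per gene that the authors deposited, with gene positions and lengths. The submitters' processing notes name the build mm10 and the tools featureCounts 1.5.0-p3, HISAT2 2.0.5 and fastp. For the strand setting, the annotation release and multimapping reads, the choice is not given in the sources used here. The table held 0 columns of other samples.

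Differential tests used edgeR 4.0.16 under R 4.3.3. The function filterByExpr kept 13800 of 54532 genes, libraries were scaled by TMM, and a model with 1 mean per group was fitted to all 12 libraries with the robust quasi-likelihood F test. Benjamini-Hochberg adjustment ran over all 13800 genes in every comparison, and 0.05 was the threshold. The 6 comparisons were Pg against control in cKO and in cHet cells, cKO against cHet in controls, under Pg and on average, and the interaction, which shares its libraries with the others. Levels are CPM on TMM-scaled library sizes. The standard error is the log2 change over the square root of F. Totals of 14527674 to 16793803 counts limit precision mainly for Nqo1 and Me1. The steps were tested on simulated data.

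Members and lists were chosen with earlier results of these data known. Values per library are given for members past the threshold in a genotype comparison or the interaction, and for the 10 members of largest Pg change in either genotype, other genes following the lists' smallest p. Between libraries of 1 group the chi-square per gene was 2.59 to 17.2, more than sampling noise gives, and no library was treated as a repeat of another. In each group 1 pair was closer than the rest. These were cKO Pg 1 and 2 (3.78, against 12.8 and 17.2) and cKO control 2 and 3 (4.07, against 13.6 and 14.5). In cHet cells they were Pg 2 and 3 (2.59, against 14.2 and 15.0) and control 2 and 3 (5.31, against 13.8 and 14.4). The reason was not tested. Alternatives were DESeq2 1.42.0 (run without the low-count filter), other scalings and filters, fits of single comparisons, a replicate block and leaving out each library. Promoter sequences are those of RefSeq for GRCm38.p6. The NADPH oxidase list is not reported in full here.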

Additional observations from a re-analysis of the deposited data

Results flagged for a closer look

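The response of Slc40a1, the ferroportin gene, to Pg differed between genotypes. The log2 change with Pg in cKO minus that in cHet cells was 0.55 ± 0.09 (adjusted p = 0.0115 by edgeR over all genes tested). Every cKO Pg library lay above every cKO control, and every cHet Pg library lay below every cHet control. The cHet change alone did not pass the threshold.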

How the results depend on the processing

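Leaving out 1 library at a time gave 28 to 30 called members for Pg in cKO cells, 25 to 29 for Pg in cHet cells, 1 to 3 between genotypes in controls, 0 to 1 between genotypes under Pg, 1 to 2 for the mean genotype difference and 1 to 1 for the interaction. Without a low-count filter, 5 members differed between genotypes in controls, 2 under Pg, 5 on average and 3 in the interaction, with more genes tested. DESeq2 called 3 under Pg and 3 in the interaction. The cause of these shifts was not tested. Scaling by library size turned the sign of Gpx4 in cKO (-0.17) and cHet cells (-0.06), of G6pdx (-0.06) and Gstm1 (-0.01) in cHet cells and of Tkt in cKO cells (-0.07). Single libraries also ended the Pg calls of Tkt in cKO cells (adjusted p = 0.0518 to 0.121), and of G6pdx (0.0508 to 0.150), Gpx4 (0.0591 to 0.206), Gstm1 (0.0842 to 0.0963) and Prdx5 (0.0512) in cHet cells. With the replicate numbers of the labels as a block, 29, 27, 3, 1, 1 and 1 members were called in the 6 comparisons, in the order given under the methods. Same-numbered libraries deviated from their group means with correlations of 0.05 to 0.32 between genotypes in controls and -0.25 to 0.05 under Pg. Between Pg and control they were -0.05 to 0.15 in cKO and -0.25 to -0.09 in cHet cells. With 3 libraries a group, these values cannot settle whether the numbers pair the samples. Depth limits Nqo1 and Me1, which lay between 0.641 and 3.90 CPM.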
